A study of Mus musculus with 6 samples.

Results

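Glucose uptake and glycolysis were followed through 10 genes in single bone marrow-derived macrophages: the glucose transporter Slc2a1, 8 genes of glycolysis (Hk2, Pfkl, Pfkfb3, Aldoa, Pgk1, Eno1, Pkm and Ldha), and Txnip, an arrestin-like protein that limits glucose uptake. They were taken by name from the 18429 genes of the count matrix, and each of the 10 passed the filter of a transcript in at least 5% of all cells, which kept 12720 genes. Macrophages were grown from the bone marrow of mice of a mixed genetic background that carried Rosa26 creERT2/creERT2 in both genotypes, with Rad21 lox/lox alleles in the Rad21-/- cells and Rad21 WT/WT alleles in the wild-type cells. Rad21 is a subunit of cohesin, the ring complex that folds chromosomes. 4-hydroxy-tamoxifen at 200 nM was given after 96 h to both genotypes, so that wild-type cells had the same Cre and the same drug. On day 7 the cells were left untreated or were given 10 ng/ml of LPS, a bacterial cell wall component that macrophages sense through Toll-like receptor signalling, for 2 or 8 h. Each genotype and time point is 1 sample. No test across samples was therefore possible, and every interval below covers counting error only, at 95%.

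Transcripts were counted as UMIs, unique tags that mark single captured molecules, by MARS-seq, a plate-based method that reads the 3′ end of transcripts. After leaving out 17 wells with more than 25000 UMIs, 181 to 267 cells per sample and 1197415 to 1734640 UMIs per sample remained. The wells left out held 45.5% of all UMIs of wild-type cells at 2 h of LPS, and results that turn on them are given both ways. Levels are the summed UMIs of a gene scaled to the total UMIs of the sample (CPM), and a gene was counted as higher or lower when it was past 1.5-fold. The targeted gene, Rad21, stood at 64.3, 50.9 and 34.1 CPM in wild-type cells (untreated, 2 h and 8 h) and at 5.46, 8.01 and 6.92 CPM in Rad21-/- cells. All 7 macrophage markers were detected. The summed level of that list ran from 5881 to 8877 CPM in wild-type and from 5281 to 6376 CPM in Rad21-/- cells. Lyz2 was the largest part of that sum, at 3822 to 6487 CPM in wild-type and 2594 to 3443 CPM in Rad21-/- cells. Fcgr1 and Mertk were also lower in Rad21-/- cells at each time point. Cd68 went the other way, at 796 to 1312 CPM in wild-type and 1423 to 1857 CPM in Rad21-/- cells. Csf1r was also higher in Rad21-/- cells at each time point, and Adgre1 and Itgam changed order between time points. Ighm, an immunoglobulin chain, was higher in Rad21-/- cells (153.9 to 176 CPM) than in wild-type cells (12.9 to 43.6 CPM). Ms4a1, another B cell marker, did not follow it, with 7.61, 9.19 and 10.9 CPM in wild-type cells and 4.25, 13.6 and 10.95 CPM in Rad21-/- cells. The proliferation genes Mki67 or Top2a were found in 40.3%, 46.96% and 14.2% of wild-type cells and in 25.1%, 23.4% and 22.1% of Rad21-/- cells.

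Macrophages that sense LPS are known to take up more glucose and to route it through glycolysis to lactate. Glucose enters through the facilitative transporter GLUT1, encoded by Slc2a1, and is trapped as glucose phosphate by hexokinases such as Hk2. Phosphofructokinase, of which Pfkl is the liver-type subunit, commits the sugar to glycolysis and is activated by the product of the Pfkfb3 enzyme. Aldoa, Pgk1, Eno1 and Pkm then carry the carbon to pyruvate, which Ldha reduces to lactate. Txnip binds thioredoxin and promotes the removal of GLUT1 from the cell surface. Its transcription is known to follow glucose phosphate through the factors MondoA (Mlxip) and ChREBP (Mlxipl), which bind with Mlx to carbohydrate response elements, while several glycolytic genes are known targets of the hypoxia-inducible factor Hif1a.

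The 250 bases before the transcription start are shown for Txnip and for the members with the largest differences after LPS, so that the letters around the starts of genes with opposite courses can be read side by side. They are RefSeq sequences of build GRCm38.p6, read 5′ to 3′ on the strand of the gene. A carbohydrate response element is built from a pair of boxes, here searched as 2 copies of CACGNG with 5 bases between them on either strand. Of 32851 promoters, 0.0457% held such a pair. Txnip was the only member with one, and its pair, in capitals, begins 85 bases before the start. Only this 1 pattern was searched, and the Txnip site fits it, so the share says nothing about pairs written otherwise. Arrdc4, an arrestin relative of Txnip, was read in the same way and held no such pair.
Txnip, chr3:96557707-96557956, plus strand: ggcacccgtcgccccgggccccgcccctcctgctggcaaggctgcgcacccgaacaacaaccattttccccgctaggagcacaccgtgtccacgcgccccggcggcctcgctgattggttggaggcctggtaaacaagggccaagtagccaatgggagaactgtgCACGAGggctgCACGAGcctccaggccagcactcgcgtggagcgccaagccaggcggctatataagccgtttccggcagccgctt

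The core of the hypoxia response element, ACGTG on either strand, was present in 16.6% of all promoters and in 9 of the 17 promoters listed for the 10 genes, which covers 7 of the genes. Neighbouring windows of Aldoa and of Eno1 overlap. The E-box CACGTG, which contains ACGTG on both strands, was present in 6.02% of promoters and in those of Pfkfb3 and Ldha among the members. The motif stands in capitals in Slc2a1, Hk2 and both starts of Pfkfb3. It was also present at a start of Aldoa, Pgk1, Pkm and Ldha, which are not printed, with 5 matches on either strand for Ldha. None of these was past 1.5-fold higher than untreated in wild-type cells. In Rad21-/- cells Pgk1 was past it at 8 h (log2 ratio 0.62), and the others were not. A match describes the letters of the window and was not tested for binding.
Slc2a1, chr4:119108495-119108744, plus strand: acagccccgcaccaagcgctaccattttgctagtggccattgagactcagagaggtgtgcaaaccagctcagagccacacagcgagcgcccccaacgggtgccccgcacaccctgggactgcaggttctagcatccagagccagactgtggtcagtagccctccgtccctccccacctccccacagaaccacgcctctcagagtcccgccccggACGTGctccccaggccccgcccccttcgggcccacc
Hk2, chr6:82774455-82774704, minus strand: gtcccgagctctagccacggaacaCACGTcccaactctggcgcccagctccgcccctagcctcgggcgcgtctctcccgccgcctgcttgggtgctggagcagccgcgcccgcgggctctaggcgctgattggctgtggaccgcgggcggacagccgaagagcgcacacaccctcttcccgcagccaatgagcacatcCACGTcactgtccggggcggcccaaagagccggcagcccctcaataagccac
Pfkfb3 first start, chr2:11553930-11554179, minus strand: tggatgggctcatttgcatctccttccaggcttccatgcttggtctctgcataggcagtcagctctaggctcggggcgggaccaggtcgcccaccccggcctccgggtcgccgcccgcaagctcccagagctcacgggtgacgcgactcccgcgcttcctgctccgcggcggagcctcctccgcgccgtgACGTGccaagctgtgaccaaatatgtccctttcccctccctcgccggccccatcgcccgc
Pfkfb3 second start, chr2:11502091-11502340, minus strand: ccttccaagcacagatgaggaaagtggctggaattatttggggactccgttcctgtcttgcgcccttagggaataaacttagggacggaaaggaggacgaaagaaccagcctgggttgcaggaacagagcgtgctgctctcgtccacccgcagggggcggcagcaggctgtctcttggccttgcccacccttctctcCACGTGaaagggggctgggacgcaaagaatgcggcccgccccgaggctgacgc

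LPS left Txnip at a small part of its untreated level in both genotypes, and Rad21-/- cells had more of it than wild-type cells at each time point. The gene lies on chromosome 3 at 96557957 to 96561857 of GRCm38.p6. In wild-type cells 209 UMIs were counted untreated, 17 at 2 h and 22 at 8 h, which is 144.6, 14.2 and 14.1 CPM. Among Rad21-/- cells 317, 39 and 50 UMIs were counted, which is 192, 31.2 and 28.8 CPM. The untreated samples were the highest of the 6, and their intervals (126 to 166 and 171.8 to 215 CPM) did not overlap those of any LPS sample.

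In wild-type cells Txnip was 10.2-fold lower at 2 h (log2 ratio -3.35, interval -4.16 to -2.63) and equally low at 8 h (log2 ratio -3.35, interval -4.06 to -2.72). Rad21-/- cells had it 6.16-fold lower at 2 h (log2 ratio -2.62, interval -3.14 to -2.14) and 6.67-fold lower at 8 h (log2 ratio -2.74, interval -3.20 to -2.30). The 2 h and 8 h intervals overlapped in each genotype, so no difference between those times was detectable. With the deep wells included, the wild-type log2 ratio at 2 h was -2.41.

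The number of cells with a Txnip transcript followed its summed level. A UMI was found in 53.8% of untreated wild-type cells (exact Clopper-Pearson interval 47.2% to 60.2%), in 8.84% at 2 h (5.14% to 14.0%) and in 7.51% at 8 h (4.58% to 11.5%). Among Rad21-/- cells 64.4% were positive untreated (58.4% to 70.2%), with 13.6% positive by 2 h (8.99% to 19.4%) and 18.9% by 8 h (14.0% to 24.7%). Depth differed between cells, so each was also thinned to 3800 UMIs, which left Txnip in 40.8%, 5% and 5.80% of wild-type cells and in 49.5%, 9.87% and 11.4% of Rad21-/- cells. Thinned untreated cells with 2 or more Txnip UMIs made up 9.95% of wild-type and 19.1% of Rad21-/- cells. No more than 1.32% of cells of any LPS sample held that many.

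Rad21-/- cells had 1.33-fold more Txnip than wild-type cells untreated (log2 ratio 0.41, interval 0.16 to 0.67), which is short of 1.5-fold. The ratio was 2.20-fold at 2 h (log2 ratio 1.14, interval 0.28 to 2.05) and 2.04-fold at 8 h (log2 ratio 1.03, interval 0.28 to 1.82). Cells of both genotypes shared library pools, in which wells were processed together. Rad21-/- cells were the higher in 7 of 8 pools untreated, in 4 of 5 at 2 h and in 6 of 8 at 8 h, counting only pools that held 5 or more cells of both. Without cells that held Ighm, which differed between the genotypes, the log2 ratios were 0.21, 0.96 and 0.86. The value at 2 h is fragile. It was 0.12 on the log2 scale with the deep wells included and 0.37 without 1 library pool, and a single Rad21-/- cell at 2 h held 8 of the 39 UMIs.

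**Figure D1:**
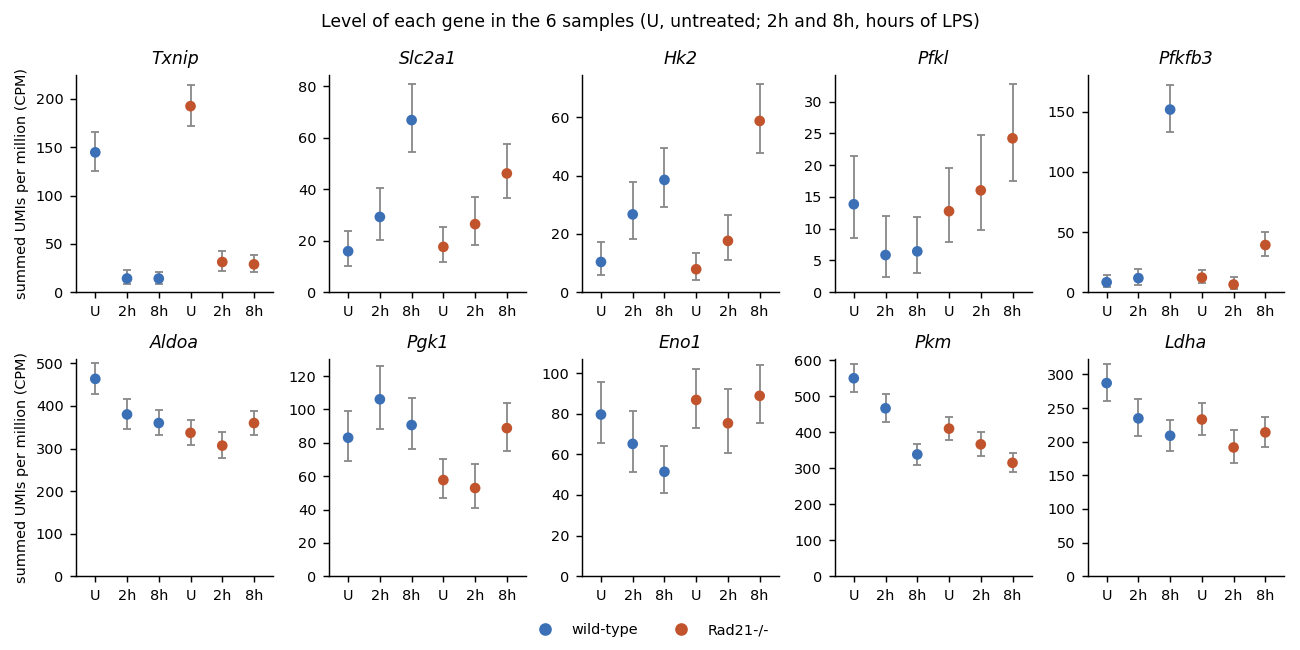
Level of the 10 genes in the 6 samples, in CPM (vertical axis, from 0, a scale of its own for each gene), with exact Poisson 95% intervals as bars. Blue points are wild-type and orange points Rad21-/- samples. Txnip is high only in the 2 untreated samples, Pfkfb3 stands at 152 CPM in wild-type cells at 8 h against 39.2 CPM in Rad21-/- cells, and Aldoa, Pkm and Ldha differ far less between samples.

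The gene whose levels over the 6 samples were most like those of Txnip was Gm15441. Likeness was the root mean square difference of centred log2(CPM + 1) over the 6 samples, which was 0.30 for Gm15441, 0.42 for Dusp6, a phosphatase of ERK kinases, and 0.49 for AI467606. Gm15441 is a long non-coding RNA at chromosome 3, 96555768 to 96566801 (GRCm38.p6), and its span covers all 3901 bases of Txnip on the opposite strand. It stood at 21.4, 3.34 and 2.57 CPM in wild-type and at 30.3, 5.61 and 5.19 CPM in Rad21-/- cells. Whether counting used the strand is not given in the sources used here, so reads of these overlapping genes cannot be told apart. The nearest genes of Slc2a1 were Snx10, Rnf149 and 4930469K13Rik (0.13, 0.16 and 0.16), and those of Ldha were Chd8, Atp5k and Chchd1 (0.05 each).

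Slc2a1, the glucose transporter itself, had the opposite course to Txnip. It was counted at 23, 35 and 104 UMIs in wild-type cells, or 15.9, 29.2 and 66.8 CPM, and at 29, 33 and 80 UMIs in Rad21-/- cells, or 17.6, 26.4 and 46.1 CPM. At 8 h it was 4.20-fold higher in wild-type cells (log2 ratio 2.07, interval 1.41 to 2.79) and 2.62-fold higher in Rad21-/- cells (log2 ratio 1.39, interval 0.76 to 2.06). The 8 h samples were the highest of each genotype, and their intervals did not overlap those of the untreated samples. The ratios at 2 h were smaller, with a log2 ratio of 0.88 in wild-type (interval 0.08 to 1.703) and 0.59 in Rad21-/- cells (interval -0.18 to 1.36). Without cells that held Mki67 or Top2a, the wild-type value at 2 h was 0.23. Rad21-/- cells at 8 h had a log2 ratio of -0.54 to wild-type cells (interval -0.97 to -0.10), short of 1.5-fold, and they were the lower in 6 of 8 pools. Relative to the median gene in that comparison the value was -0.75.

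A Slc2a1 UMI was present in 9.24% of untreated wild-type cells and in 29.6% at 8 h, and in 8.61% and 27.9% of Rad21-/- cells. After thinning, 4.19% of untreated wild-type cells and 21.9% at 8 h held one, against 4.55% and 12.4% of Rad21-/- cells. The shares expected over all draws were 5.25% and 22.2% of wild-type cells and 5.64% and 15.3% of Rad21-/- cells. Counts this low cannot separate more cells with the transcript from more transcripts in each cell.

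Hk2, the inducible hexokinase, was also higher after LPS in both genotypes. It was counted at 15, 32 and 60 UMIs in wild-type cells (10.4, 26.7 and 38.6 CPM) and at 13, 22 and 102 UMIs in Rad21-/- cells (7.89, 17.6 and 58.8 CPM). The log2 ratios to untreated cells were 1.36 at 2 h (interval 0.44 to 2.36) and 1.89 at 8 h (1.06 to 2.82) in wild-type cells. For Rad21-/- cells they were 1.16 at 2 h (0.11 to 2.27) and 2.90 at 8 h (2.06 to 3.86), a 7.45-fold difference. At 8 h Hk2 was 1.52-fold higher in Rad21-/- than in wild-type cells (log2 ratio 0.61, interval 0.13 to 1.09) and the higher in 7 of 8 pools. That value fell below 1.5-fold under 7 of 10 alternative settings, with 0.36 under TMM scaling. At 2 h the log2 ratio between genotypes was -0.60 (interval -1.45 to 0.23).

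Pfkfb3 and Pfkl showed the widest gaps between the genotypes at 8 h, in opposite directions. The Pfkfb3 enzyme makes and degrades the sugar phosphate that activates phosphofructokinase. Wild-type cells held 12 UMIs untreated, 14 at 2 h and 236 at 8 h, or 8.30, 11.7 and 152 CPM. Rad21-/- cells held 20, 8 and 68 UMIs, or 12.1, 6.41 and 39.2 CPM. Only the 8 h samples stood clear of the others, and the wild-type sample stood clear of the Rad21-/- sample.

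At 8 h Pfkfb3 was 18.3-fold higher than untreated in wild-type cells (log2 ratio 4.19, interval 3.36 to 5.16) and 3.23-fold higher in Rad21-/- cells (log2 ratio 1.69, interval 0.95 to 2.49). Rad21-/- cells had 3.87-fold less than wild-type cells at 8 h (log2 ratio -1.95, interval -2.36 to -1.56). They were the lower in 8 of 8 library pools. The pools did not overlap, since wild-type cells ranged from 115.01 to 216 CPM and Rad21-/- cells from 14.1 to 62.0 CPM. Without cells that held Ighm the log2 ratio was -2.03. At 8 h 52.2% of wild-type (45.8% to 58.5%) and 24.8% of Rad21-/- cells (19.2% to 31.0%) held a Pfkfb3 UMI, against 5.04% and 7.12% untreated. In cells thinned to 3800 UMIs these shares at 8 h were 38.4% and 9.95%, and 10.7% and 2.49% of cells held 2 or more UMIs. At 2 h counts were too low for an order, since 14 and 8 UMIs gave a log2 ratio between genotypes of -0.87 (interval -2.33 to 0.49). That ratio changed sign in the 1 random draw of thinned cells. The shares expected over all draws at 2 h were 3.89% of wild-type and 2.59% of Rad21-/- cells. Pfkfb4, a related gene, was higher in Rad21-/- than in wild-type cells at 8 h (log2 ratio 1.48, and 1.23 under TMM scaling). Its log2 ratio to untreated cells at 8 h was -1.37 in wild-type and -0.37 in Rad21-/- cells.

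**Figure D2:**
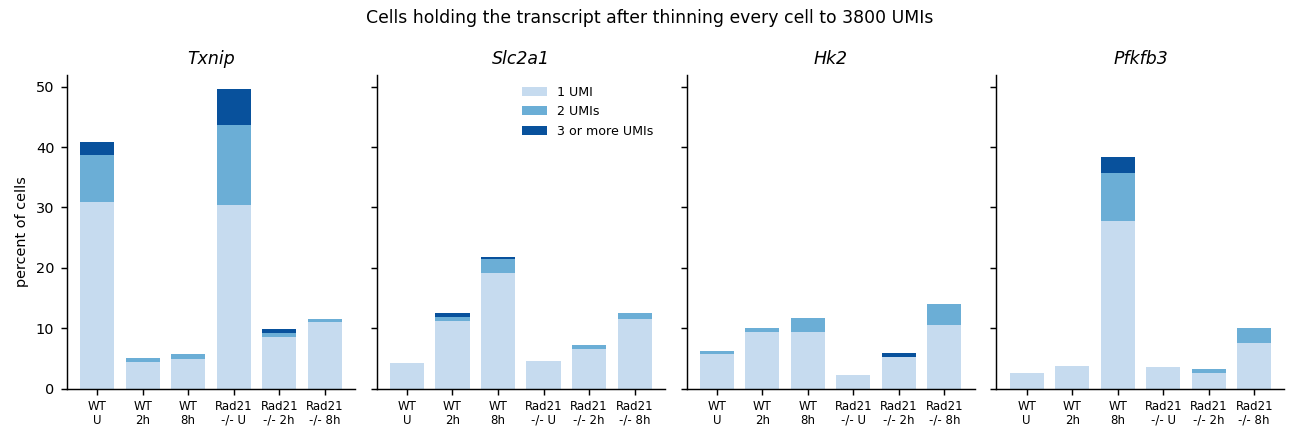
Percent of cells with 1, 2, or 3 or more UMIs of Txnip, Slc2a1, Hk2 and Pfkfb3 in each sample, after each cell was thinned to 3800 UMIs (bars start at 0; shallower cells are left out). Txnip is found in 40.8% and 49.5% of untreated wild-type and Rad21-/- cells, and Pfkfb3 in 38.4% of wild-type and 9.95% of Rad21-/- cells at 8 h.

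Pfkl, the liver-type subunit of phosphofructokinase, was rare, and it moved apart in the genotypes. Wild-type cells held 20, 7 and 10 UMIs (13.8, 5.85 and 6.43 CPM), and Rad21-/- cells held 21, 20 and 42 UMIs (12.7, 16.0 and 24.2 CPM). In wild-type cells the log2 ratio was -1.24 at 2 h (interval -2.73 to 0.06) and -1.11 at 8 h (interval -2.36 to 0.06), so that both intervals reached past 0. For Rad21-/- cells it was 0.33 at 2 h (interval -0.63 to 1.29) and 0.93 at 8 h (interval 0.14 to 1.76). Rad21-/- cells held 2.74-fold more than wild-type cells at 2 h (log2 ratio 1.45, interval 0.15 to 2.94) and 3.77-fold more at 8 h (log2 ratio 1.91, interval 0.90 to 3.07). They were the higher in 5 of 5 pools at 2 h and in 7 of 8 pools at 8 h, and the untreated log2 ratio was within 1.5-fold (log2 ratio -0.12, interval -1.07 to 0.84). The pool directions rest on few counts, since the wild-type cells of a pool held 0 to 4 Pfkl UMIs at 2 h and 0 to 3 at 8 h. With the deep wells included, the wild-type log2 ratio at 2 h was -0.26 and the ratios between genotypes were 0.80 at 2 h and 1.28 at 8 h. Pfkp, another phosphofructokinase subunit, did not share this course. Its log2 ratio to untreated cells at 8 h was 0.35 in wild-type and 0.33 in Rad21-/- cells. Between the genotypes (Rad21-/- against wild-type) the Pfkp log2 ratio was -0.82 at 2 h and -0.18 at 8 h.

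**Figure D3:**
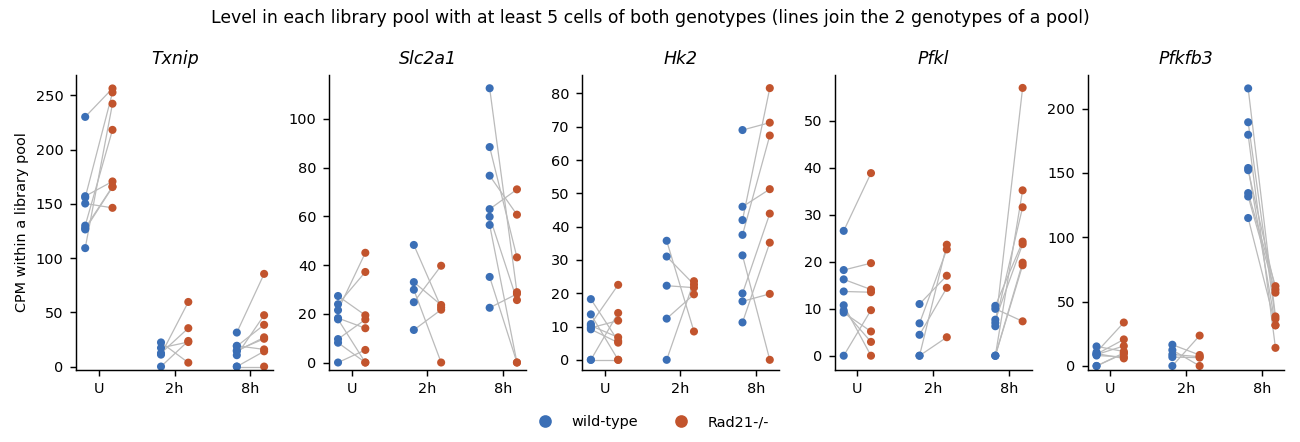
Level of Txnip, Slc2a1, Hk2, Pfkl and Pfkfb3 within each library pool that held at least 5 cells of both genotypes (vertical axis, CPM; U, untreated; 2h and 8h, time in LPS). Grey lines join the wild-type (blue) and Rad21-/- (orange) cells of a pool; each pool holds a single time point. For Pfkfb3 at 8 h all 8 lines go down from wild-type to Rad21-/-, and for Pfkl 7 of 8 go up.

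Of the 5 enzymes of the lower pathway, Aldoa and Ldha were within 1.5-fold in every comparison, while Pgk1, Eno1 and Pkm were past it in some. Aldoa, the aldolase, ran from 360 to 464 CPM in wild-type and from 307 to 360 CPM in Rad21-/- cells. Ldha, lactate dehydrogenase A, ran from 209 to 287 CPM and from 191 to 233 CPM. Both were lower at 8 h than untreated in wild-type cells beyond counting error, with log2 ratios of -0.37 for Aldoa (interval -0.53 to -0.20) and -0.46 for Ldha (interval -0.67 to -0.25). The median gene stood at -0.28 in that comparison, and relative to it Aldoa was at -0.08 and Ldha at -0.18.

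Pkm, pyruvate kinase, was at 549, 466 and 338 CPM in wild-type and at 410, 366 and 315 CPM in Rad21-/- cells. Its log2 ratio at 8 h was -0.70 in wild-type (interval -0.86 to -0.54) and -0.38 in Rad21-/- cells (interval -0.55 to -0.22). Eno1, enolase, was at 79.6, 65.1 and 51.4 CPM in wild-type and at 86.8, 75.3 and 88.8 CPM in Rad21-/- cells. At 8 h its log2 ratio was -0.63 in wild-type cells (interval -1.06 to -0.21) and 0.03 in Rad21-/- cells (interval -0.31 to 0.37). Relative to the median gene, the wild-type values at 8 h were -0.42 for Pkm and -0.35 for Eno1, and neither was past 1.5-fold under TMM or median-of-ratios scaling. Eno1 was 1.73-fold higher in Rad21-/- than in wild-type cells at 8 h (log2 ratio 0.79, interval 0.39 to 1.20), with a log2 ratio of 0.54 under TMM scaling. Pgk1, phosphoglycerate kinase, was at 83.03, 106.1 and 90.6 CPM in wild-type and at 57.7, 52.9 and 88.8 CPM in Rad21-/- cells. It was 2.01-fold lower in Rad21-/- than in wild-type cells at 2 h (log2 ratio -1.004, interval -1.46 to -0.56) and lower in 4 of 5 pools. Rad21-/- cells had 1.54-fold more Pgk1 at 8 h than untreated (log2 ratio 0.62, interval 0.24 to 1.01), and 0.40 without 1 library pool. At 8 h the log2 ratio of Pgk1 between genotypes was -0.03 (interval -0.37 to 0.31).

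Several of these enzymes have near-copies elsewhere in the genome, and the authors kept only reads that mapped to a single place. Aldoart1, a copy of Aldoa, had 27 to 53 UMIs per sample and Eno1b, a copy of Eno1, 4 to 14. Gapdh, which is normally among the most abundant glycolytic transcripts and has many pseudogenes, had only 21 to 51 UMIs per sample. Levels of genes with near-copies are therefore uncertain.

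Across the 10 genes, 2 were higher and 2 lower than untreated in wild-type cells at 2 h, when 10.5% of all 12720 genes were higher and 17.6% lower. At 8 h in wild-type cells 3 were higher (Slc2a1, Hk2 and Pfkfb3) and 4 lower (Txnip, Pfkl, Eno1 and Pkm), against 11.9% higher and 33.7% lower among all genes. Scaling weighs on that comparison, because 26.2% of the genes past 1.5-fold were higher with total UMIs and 48.9% with TMM factors. With TMM 3 members were higher and 2 lower, beside 20.7% and 21.6% of all genes. At 2 h 37.4% of the genes past 1.5-fold were higher with total UMIs and 50.9% with TMM. With TMM Pfkfb3 was also past 1.5-fold higher at 2 h, when 13.7% of all genes were higher and 13.2% lower. In Rad21-/- cells 2 members were higher and 2 lower at 2 h (all genes, 11.9% and 13.2%), and 5 were higher and 1, Txnip, lower at 8 h (all genes, 15.1% and 17.3%). The median log2 ratio of the members was -0.26 at 2 h and -0.41 at 8 h for wild-type cells, and -0.15 and 0.36 for Rad21-/- cells, beside -0.12, -0.28, -0.03 and -0.03 for all genes.

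Between the genotypes no member was past 1.5-fold untreated, when 8.36% of all genes were higher in Rad21-/- cells and 15.2% lower. Aldoa, Pkm, Ldha and Pgk1 were still lower in untreated Rad21-/- cells beyond counting error, with log2 ratios of -0.46, -0.42, -0.30 and -0.53. Txnip was higher (0.41), and the median gene stood at -0.06. At 2 h 2 members were higher (Pfkl and Txnip) and 3 lower (Hk2, Pfkfb3 and Pgk1), beside 14.4% and 14.7% of all genes. At 8 h 4 were higher (Hk2, Pfkl, Eno1 and Txnip) and 1 lower (Pfkfb3), beside 25.7% and 10.3% of all genes. TMM factors changed the share of higher genes among those past 1.5-fold from 71.3% to 46.5% at 8 h, and left 2 members higher (Pfkl and Txnip) and 2 lower (Pfkfb3 and Slc2a1). The comparisons share samples, so their counts are not independent. The log2 ratio of LPS to untreated cells at 8 h differed between genotypes by -2.50 for Pfkfb3, 2.03 for Pfkl, 1.00 for Hk2, -0.68 for Slc2a1 and 0.62 for Txnip (Rad21-/- minus wild-type). With 1 sample per group these differences were not tested.

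**Figure D4:**
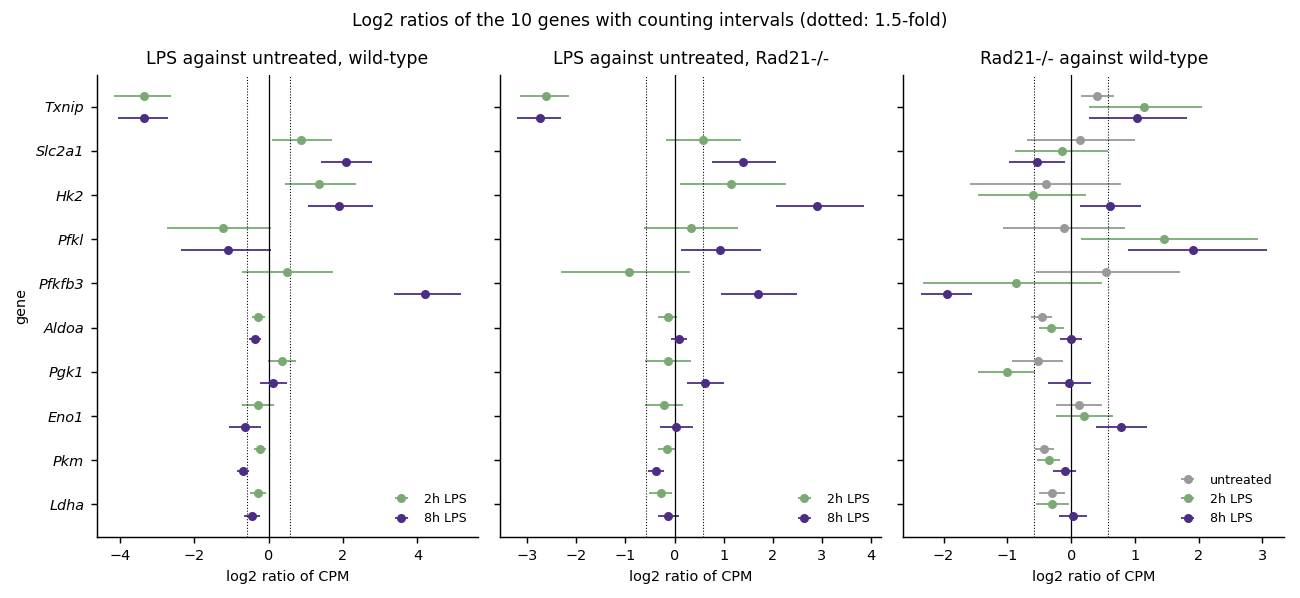
Log2 ratios of CPM for the 10 genes (rows) with exact 95% counting intervals: LPS against untreated cells in wild-type (left) and Rad21-/- cells (middle), and Rad21-/- against wild-type cells (right). Dotted lines mark 1.5-fold. Txnip lies at -3.35 to -2.62 in the LPS comparisons of both genotypes, and Pfkfb3 lies at 4.19 in wild-type and 1.69 in Rad21-/- cells at 8 h.

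Txnip was next compared with the abundant enzymes between cells of the same sample. In each sample the thinned cells were split at the median of the summed UMIs of Aldoa, Pgk1, Eno1, Pkm and Ldha. In untreated wild-type cells, those above the median held 59 Txnip UMIs in 93 cells and those below held 45 in 98 cells, a log2 ratio of 0.47 (interval -0.12 to 1.06). The log2 ratios of the other samples lay between -1.08 and 0.93. No interval in the 6 samples excluded 0, so a relation between Txnip and these enzymes from cell to cell was not detectable at this depth.

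Other genes of the pathway were read from lists, whose counts at 8 h stand beside 11.9% of all genes higher and 33.7% lower in wild-type cells, and 15.1% higher and 17.3% lower in Rad21-/- cells. With TMM factors, applied to the lists after seeing the data, 20.7% of all genes were higher and 21.6% lower in wild-type cells. Among 8 hexose and lactate transport genes, 2 were higher and 3 lower at 8 h in wild-type cells, and 1 was higher and 2 lower in Rad21-/- cells, with lower shares near those of all genes. Slc2a6, a transporter of the glucose transporter family, was highest at 8 h in both genotypes. It was at 74.03, 140 and 400 CPM in wild-type and at 57.05, 137.8 and 392 CPM in Rad21-/- cells. Its log2 ratio between the genotypes at 8 h was -0.03 (interval -0.19 to 0.13), and its log2 ratio to untreated cells at 8 h was 2.43 (interval 2.13 to 2.74) and 2.78 (interval 2.47 to 3.11). Slc2a8, another member of the family, went from 24 to 1 UMI in wild-type cells (log2 ratio -4.69, interval -10.1 to -2.08) and from 25 to 4 in Rad21-/- cells (log2 ratio -2.72, interval -4.70 to -1.18). Slc16a1, a lactate and pyruvate carrier, differed between the genotypes at 8 h with 51 UMIs in wild-type and 14 in Rad21-/- cells (log2 ratio -2.02, interval -2.99 to -1.15).

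Of the relatives, partners and regulators of Txnip, 7 of 10 passed the filter, Arrdc2 and Mlxipl did not, and Arrdc3 is not analysed here. At 8 h 3 were higher and 1 lower in wild-type cells, and 3 were higher and none lower in Rad21-/- cells, the same counts as with TMM factors. The lower gene was Arrdc1, an arrestin relative of Txnip, which went from 35 to 10 UMIs in wild-type cells (log2 ratio -1.91, interval -3.09 to -0.87) and from 27 to 23 in Rad21-/- cells (log2 ratio -0.31, interval -1.17 to 0.55). Txn1, the thioredoxin that Txnip binds, was at 794, 891 and 2008 CPM in wild-type and at 605, 692 and 1735 CPM in Rad21-/- cells, with log2 ratios at 8 h of 1.34 (interval 1.24 to 1.44) and 1.52 (interval 1.42 to 1.62). Txnrd1, the reductase that recharges thioredoxin, had a log2 ratio at 8 h of 0.72 (interval 0.40 to 1.04) in wild-type and 1.69 (interval 1.32 to 2.08) in Rad21-/- cells. Arrdc4, the closest arrestin relative of Txnip, went from 5 to 22 UMIs in wild-type cells (log2 ratio 2.03, interval 0.59 to 3.79), and from 10 to 18 in Rad21-/- cells (log2 ratio 0.77, interval -0.42 to 2.05). Untreated Rad21-/- cells had less Txnrd1 than wild-type cells (log2 ratio -0.94, interval -1.37 to -0.53), and at 8 h the ratio was 0.03 (interval -0.23 to 0.29). Mlx and Mlxip, which act at the carbohydrate response element, were lower at 2 h in wild-type cells. Mlxip went from 40 to 15 UMIs in wild-type cells (log2 ratio -1.14, interval -2.11 to -0.26) and from 38 to 15 in Rad21-/- cells (log2 ratio -0.94, interval -1.91 to -0.04). Mlx had a log2 ratio at 2 h of -0.85 in wild-type (interval -1.63 to -0.11) and 0.14 in Rad21-/- cells (interval -0.51 to 0.77). At 8 h both were within 1.5-fold, with log2 ratios of -0.39 (Mlx) and -0.52 (Mlxip) in wild-type and of -0.04 and -0.57 in Rad21-/- cells.

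Hif1a and its known targets gave 7 genes past the filter of 12 listed. At 8 h 1 was higher and 3 lower in wild-type cells, which turned to 3 higher and 1 lower with TMM factors, and 2 were higher and 2 lower in Rad21-/- cells with either scaling. Hif1a was at 29.8, 32.6 and 103 CPM in wild-type and at 37.6, 34.4 and 53.6 CPM in Rad21-/- cells. At 8 h its log2 ratio was 1.79 in wild-type (interval 1.30 to 2.31) and 0.51 in Rad21-/- cells (interval 0.03 to 1.00), and the log2 ratio between genotypes was -0.94 (interval -1.32 to -0.56). Pdk1, a kinase that turns off pyruvate dehydrogenase, went from 37 to 11 UMIs in wild-type cells (log2 ratio -1.86, interval -2.98 to -0.86).

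The other glycolytic enzymes, 10 of 15 of which passed the filter, had none higher and 4 lower at 8 h in wild-type cells, near the share of all genes, and none higher and 1 lower in Rad21-/- cells. With TMM factors 2 were higher and 4 lower in wild-type cells. Aldoc, another aldolase, had a log2 ratio of -1.61 (interval -2.47 to -0.81) and Gpi1, which converts glucose phosphate to fructose phosphate, of -1.12 (interval -1.49 to -0.76) in wild-type cells. Of 9 genes of glycogen and glucose phosphate metabolism, none was higher and 7 were lower at 8 h in wild-type cells (median log2 ratio -1.22, beside -0.28 for all genes), and 1 was higher and 4 lower in Rad21-/- cells (median -0.50, beside -0.03). With TMM factors 6 of the 9 were lower in wild-type cells (median -0.90). Gyg, which primes glycogen, had log2 ratios of -1.42 (interval -1.81 to -1.03) and -1.99 (interval -2.38 to -1.61).

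**Figure D5:**
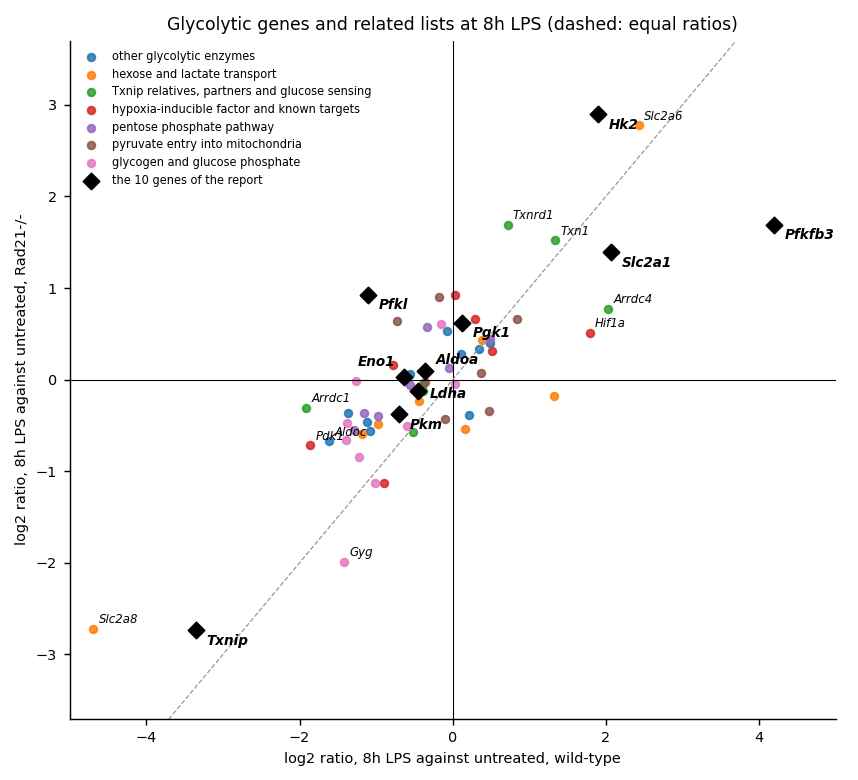
Log2 ratio of CPM at 8 h of LPS against untreated cells in wild-type (horizontal axis) and Rad21-/- cells (vertical axis) for the 10 genes (black diamonds) and the related lists (coloured points); the dashed line marks equal ratios. Hk2, Slc2a1, Slc2a6 and Txn1 lie high in both genotypes, Txnip and Slc2a8 low in both, and Pfkfb3 (4.19 and 1.69) and Pfkl (-1.11 and 0.93) lie far from the line.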

How the data were processed

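Single macrophages of 6 conditions, 1 sample each, were profiled by MARS-seq. Per the study's methods, the authors split reads by pool and cell barcode, trimmed polyT, aligned to GRCm38.p4 with Gencode M8, dropped wells by spike-in, mapped and total reads, and collapsed UMIs. They deposited UMI counts per gene and cell, not normalized. The submitters' processing notes also name FastQC.

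Each cell was assigned to its sample and pool from its column name, and 1345 of 1362 cells with at most 25000 UMIs were summed per sample. CPM, ratios and thinning (3800 UMIs per cell, seeded) were computed in scipy 1.17.1, pandas 2.3.3 and numpy 2.4.6 under Python 3.11.15, TMM factors with edgeR 4.0.16, and figures with matplotlib 3.10.9. Intervals at 95% are exact Poisson for sums, exact Clopper-Pearson for shares and exact binomial, conditional on the total, for ratios. UMIs mark molecules, but intervals cover counting error only. A count of 0 was entered as 3 UMIs in ratios. The steps were tested on simulated data. No doublet caller was run, because single cells were sorted into wells.

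The members and lists were chosen with earlier results of these data known. All members are named, with, from each list, up to 3 genes with the largest ratios per comparison, genes that are the only form of their step and near-copies. Pool and time point cannot be told apart. No paired analysis was possible because each group is 1 sample. The alternatives are in the closing section.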

Additional observations from a re-analysis of the deposited data

Results flagged for a closer look

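Among the members and the list genes past the filter, 3 were past 1.5-fold in opposite directions after LPS in the 2 genotypes. Each group was 1 sample, and the difference between genotypes was not tested. How many of all genes had such opposite ratios was not counted. Pfkl had a log2 ratio at 8 h of -1.11 in wild-type (interval -2.36 to 0.06) and 0.93 in Rad21-/- cells (interval 0.14 to 1.76). Mpc2, a subunit of the mitochondrial pyruvate carrier, had a log2 ratio at 8 h of -0.73 in wild-type (interval -1.15 to -0.31) and 0.64 in Rad21-/- cells (interval 0.23 to 1.06), but with TMM factors the wild-type value was -0.41, within 1.5-fold. Arrdc4 had a log2 ratio at 2 h of 1.27 in wild-type (interval -0.41 to 3.17) and -1.34 in Rad21-/- cells (interval -3.84 to 0.62), from 3 to 10 UMIs per sample.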

How the results depend on the processing

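Of 31 ratios of members past 1.5-fold, 307 of 310 values under the alternatives had the same sign and 269 were still past 1.5-fold. The 3 that changed sign were Pfkfb3 at 2 h with cells thinned, 0.12 for Rad21-/- cells against untreated and 0.074 for Rad21-/- against wild-type cells, and the latter with equal weight for each library pool, 0.0365. These rest on 8 to 20 UMIs before thinning. The thinned values come from 1 random draw. Over all such draws, the expected share of cells with Pfkfb3 was 2.59% in Rad21-/- cells at 2 h. It was 3.89% in wild-type cells at 2 h and 4.73% in untreated Rad21-/- cells, so neither order changed in these expected shares. The cause was not tested.

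For untreated Rad21-/- against wild-type cells, the count of members past 1.5-fold was 0, and it was 1 by the mean of the CPM of each cell, 1 with TMM or median-of-ratios factors, 2 thinned, 2 with equal pools, 2 without cells with Mki67 or Top2a, 3 without cells with Ighm, and at most 3 leaving out 1 pool. For 2 h the count of 5 was 3 thinned, 3 with equal pools and at least 3 leaving out 1 pool. With a 2-fold threshold the counts were 2 for Rad21-/- cells at 2 h against untreated, and 3 for the genotypes at 2 h and at 8 h. For the untreated genotypes, 10.3% of all genes were higher and 12.8% lower with TMM, and 9.91% and 13.2% with median-of-ratios factors. Shares of all genes were not counted at 2-fold or under the other settings, so those counts have no background beside them. The settings without Mki67, Top2a or Ighm were chosen after seeing the data. The share of cells with Txnip in wild-type cells was 40.8% and 5% thinned (untreated and 2 h) and 20.6%, 0.552% and 1.19% with at least 2 UMIs (untreated, 2 h and 8 h). In Rad21-/- cells it was 49.5% and 11.4% thinned (untreated and 8 h) and 31.8%, 3.26% and 3.15% with at least 2 UMIs. Comparing only cells with the highest and the lowest enzyme sums gave no value for wild-type cells at 2 h, where the highest held no Txnip UMI. With 1 UMI worth 0.576 to 0.835 CPM, genes under about 20 UMIs carry wide intervals.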

Other observations

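Of 7 genes of the pentose phosphate pathway, which branches off glycolysis and yields NADPH, none was higher and 3 were lower at 8 h in wild-type cells, and none was past 1.5-fold in Rad21-/- cells. In wild-type cells 33.7% of all genes were lower at 8 h, so that count is near the share of all genes. Taldo1, transaldolase, was at 417, 316 and 170 CPM in wild-type and at 225, 200 and 153.9 CPM in Rad21-/- cells. Untreated Rad21-/- cells had a log2 ratio of -0.89 to wild-type cells (interval -1.08 to -0.70), and the genotypes were within 1.5-fold at 8 h (log2 ratio -0.15, interval -0.40 to 0.10). Of the genes of pyruvate entry into mitochondria, 8 of 13 passed the filter, and at 8 h 1 was higher and 2 lower in wild-type cells while 3 were higher and 1 lower in Rad21-/- cells, beside 11.9% higher and 33.7% lower of all genes in wild-type cells and 15.1% and 17.3% in Rad21-/- cells. With TMM factors 3 were higher and 1 lower in wild-type cells too.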
